A study of Mus musculus with 6 samples.

Results

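MiR-207, miR-335 and miR-452 were examined in LLC1, a Lewis lung carcinoma line of the mouse, grown in 2D or in 3D within laminin rich extracellular matrix (lr-ECM). Members were taken by name: every probe annotated to miR-207, to miR-335 or miR-452 of either arm, and to miR-224, whose gene lies next to that of miR-452. This gave 5 of the 566 mouse miRNAs on the array, namely mmu-miR-207, mmu-miR-335-5p, mmu-miR-335-3p, mmu-miR-452-5p and mmu-miR-224-5p (the prefix mmu marks mouse and is dropped below), measured by 16 of the 1712 miRNA probes. MiR-207, miR-335-5p and miR-452-5p had been chosen because their probes were well above background in lr-ECM 3D and not in 2D, so their difference between the cultures is given here as a description, with no test. MiR-452-3p and miR-224-3p had 0 probes and are only named.

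Cells of both groups were the same unmodified line and were grown for 48 h. In 2D, the control group, they grew on plastic, and in lr-ECM 3D they were embedded in 0.5 mg/ml of Geltrex, a laminin rich basement membrane extract, above an agarose layer that keeps cells off the plate. Each culture gave 100 ng of Cy3 labelled RNA for 1 Agilent mouse miRNA array, with 3 biological replicates per group. As the arrays measure RNA of whole cultures, fewer cells that express a miRNA and less of it per cell cannot be told apart.

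A miRNA is cut from one arm of an RNA hairpin, the 5p or the 3p arm, and is loaded into an Argonaute protein, which it guides to messenger RNAs that pair with its seed near the 5′ end. Usually one arm of a hairpin is kept and the other is degraded, so that the arms of one precursor often differ in level. MiR-335 is encoded within Mest, an imprinted gene expressed from the paternal chromosome, and is known together with miR-126 and miR-206 as a suppressor of breast cancer metastasis. MiR-452 and miR-224 lie within Gabre, the gene of a GABA type A receptor subunit, and miR-224 is known to be raised in liver cancer. MiR-207 lies within Dnaja1, which encodes a co-chaperone of the heat shock protein family.

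The mature sequences are those of the miRNAs to which the probes are annotated, and they show which seed each carries. Sequences of the probes themselves were not at hand. Positions are those of RefSeq on mouse build GRCm38.p6, each sequence is written 5′ to 3′, and capitals mark the seed, bases 2 to 8.

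miR-207, chr4:40722968-40722990, plus strand: gCUUCUCCuggcucuccucccuc

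miR-335-5p, chr6:30741314-30741336, plus strand: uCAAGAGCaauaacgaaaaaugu

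miR-335-3p, chr6:30741354-30741375, plus strand: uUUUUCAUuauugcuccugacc

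miR-452-5p, chrX:72262271-72262292, minus strand: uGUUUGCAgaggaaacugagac

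miR-224-5p, chrX:72261085-72261105, minus strand: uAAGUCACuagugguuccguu

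The 5 seeds all differed, and 0 other mature mouse miRNAs in the RefSeq table carried any of them. No member thus had a seed family among the 466 of 566 array miRNAs with a sequence in that table. G and C made up 65.2% of miR-207, against 30.4% of miR-335-5p and 45.5% of miR-452-5p. In 23 bases miR-207 held 87.0% pyrimidines.

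The precursors place the arms that were measured. The Mir335 hairpin is shown because probes for both of its arms were on the array, and the Mir452 and Mir224 hairpins because they are neighbours. Capitals mark the mature arms, the 5p arm first.

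Mir335, chr6:30741299-30741396, plus strand: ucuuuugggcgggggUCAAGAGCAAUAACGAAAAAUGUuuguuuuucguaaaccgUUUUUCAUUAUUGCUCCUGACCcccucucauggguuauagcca

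Mir452, chrX:72262224-72262308, minus strand: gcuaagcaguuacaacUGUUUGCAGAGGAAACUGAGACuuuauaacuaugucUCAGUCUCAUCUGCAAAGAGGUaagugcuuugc

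Mir224, chrX:72261031-72261112, minus strand: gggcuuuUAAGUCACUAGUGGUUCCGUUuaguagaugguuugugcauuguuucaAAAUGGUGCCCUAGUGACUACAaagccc

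Each of the 4 miRNA genes lay, on the strand of its host, wholly inside the span of a protein coding gene. Mir207 lay within Dnaja1 at chr4:40722468-40734965, Mir335 within Mest at chr6:30733506-30748466, and both Mir452 and Mir224 within Gabre at chrX:72256926-72274828. The table used gives spans of genes, so exon and intron were not told apart here. Mir452 and Mir224 were 1111 bases apart.

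Signals are in linear units of the scanner after its own background subtraction, and values below 0 occur where a spot was dimmer than its background. A probe was taken as well above background when the scanner software had set the flag of that name for 50% or more of its spots. The arrays differed in brightness, with a mean over miRNA probes of 21.4, 5.03 and 40.4 units in 2D replicates 1 to 3 and 37.8 to 49.9 units in lr-ECM 3D. From 48 to 101 mouse miRNAs were well above background per 2D array and from 120 to 151 per lr-ECM 3D array. The dimmest signal well above background lay between 25.3 and 29.7 units on the 2D arrays and between 22.1 and 25.9 units on the lr-ECM 3D arrays. Negative control spots, 672 per array, went the other way: their means were 7.37 to 8.02 units in 2D and 4.52 to 5.35 units in lr-ECM 3D. The 2D arrays occupied 1 slide, scanned together, and the lr-ECM 3D arrays a different one, scanned on a different day, so slide and culture cannot be told apart in any value that follows. Where scaled values are given, each array was multiplied so that its mean over miRNA probes equalled that of the 2D arrays, and signals were floored at 1 before log2.

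MiR-207 was bright in every lr-ECM 3D culture and in no 2D culture. Its brightest probe read -7.24, 2.20 and -5.51 units in 2D replicates 1 to 3, and 165, 113 and 121 units in lr-ECM 3D replicates 1 to 3. The lowest lr-ECM 3D value was thus far above the highest 2D value, and the groups did not overlap. Unscaled, every lr-ECM 3D array likewise exceeded every 2D array for 116 of all 566 miRNAs (20.5%). All 15 spots of this probe on the lr-ECM 3D arrays were flagged as well above background and 0 of the 14 spots used on the 2D arrays. On the scaled log2 scale the mean level was 1.09 ± 1.90 in 2D and 6.13 ± 0.09 in lr-ECM 3D (SD, n = 3 each), a difference of 5.03. The wide 2D error came from replicate 2, where the factor of 4.43 for that dim array lifted 2.20 units to a log2 of 3.28 while the other 2D arrays were at the floor.

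The other 3 probes of miR-207 gave the same picture. Their lr-ECM 3D signals ran from 75.3 to 140 units, from 77.8 to 116 units and from 97.8 to 155 units, and lr-ECM 3D replicate 1 was the brightest array for each of them. In 2D none exceeded 0.386 units. As probes of one miRNA share a target they are no replicates of the culture. Scaling narrowed the spread between the lr-ECM 3D arrays for all 4 probes, with a coefficient of variation of 20.9% before and 6.33% after it for the brightest probe.

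Since no 2D array measured miR-207 above background, its fold is a bound. The mean of the lr-ECM 3D arrays was set against the lowest signal well above background of each 2D array, which put miR-207 at least 1.83-fold higher in lr-ECM 3D. The bound rested on how dim a signal each 2D array could still detect. Over 2D replicate 3 alone, the brightest 2D array, it was 5.02-fold, over replicate 1 2.26-fold, and over replicate 2 the ratio was 0.539, which gives no fold. Between arrays of like brightness, 2D replicate 3 against lr-ECM 3D replicates 2 and 3, it was 4.63-fold without any scaling.

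MiR-335-5p, the arm on which the known work on metastasis rests, was detected in all 3 lr-ECM 3D cultures but nearer to the limit. Its brighter probe read -4.22, -2.57 and 4.68 units in 2D and 66.1, 36.8 and 47.4 units in lr-ECM 3D, replicates 1 to 3. The groups did not overlap, as for 116 of all 566 miRNAs (20.5%), and lr-ECM 3D replicate 2 was the lowest of its group. There 80% of the 10 spots carried the flag, against 100% on the other lr-ECM 3D arrays and 0% on every 2D array. The second probe read 49.8, 32.5 and 40.0 units in lr-ECM 3D with 90%, 70% and 100% of its spots flagged, and at most 0.395 units in 2D.

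Scaled log2 levels of miR-335-5p were 0.46 ± 0.79 in 2D and 4.70 ± 0.26 in lr-ECM 3D (SD, n = 3 each), a difference of 4.24. This difference depends on the floor, because 2 of the 3 2D arrays lay at it. Against the detection limits of the 2D arrays the ratio was 0.678, so no fold is given over all 3. Over 2D replicate 3 alone miR-335-5p was at least 1.86-fold higher in lr-ECM 3D, and at least 1.65-fold between the arrays of like brightness. On its own array the lr-ECM 3D signal was 2.99, 1.42 and 2.05 times the lowest signal well above background in replicates 1 to 3.

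MiR-452-5p, a miRNA described in neural crest cells, likewise had all its signal in lr-ECM 3D. The brighter probe read 1.54, -0.695 and 4.83 units in 2D and 75.7, 54.7 and 59.2 units in lr-ECM 3D, replicates 1 to 3. Every one of its 30 spots on the lr-ECM 3D arrays was flagged and 0 of 29 in 2D. The groups did not overlap, which held for 20.5% of all 566 miRNAs. The dimmer probe read 54.0, 33.4 and 45.4 units in lr-ECM 3D, with 70% of its spots flagged in replicate 2 and 100% in the others, and at most 5.08 units in 2D. Both probes thus ranked the lr-ECM 3D arrays in the same order.

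The scaled log2 level of miR-452-5p was 0.70 ± 0.71 in 2D and 5.06 ± 0.07 in lr-ECM 3D (SD, n = 3 each), a difference of 4.36. Its ratio to the detection limits of the 2D arrays was 0.871, so that again no fold is given over all of them. It was at least 2.39-fold higher in lr-ECM 3D than 2D replicate 3 allowed and at least 2.25-fold between the arrays of like brightness. In lr-ECM 3D the signal was 3.43, 2.11 and 2.56 times the lowest signal well above background of the same array.

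**Figure D1:**
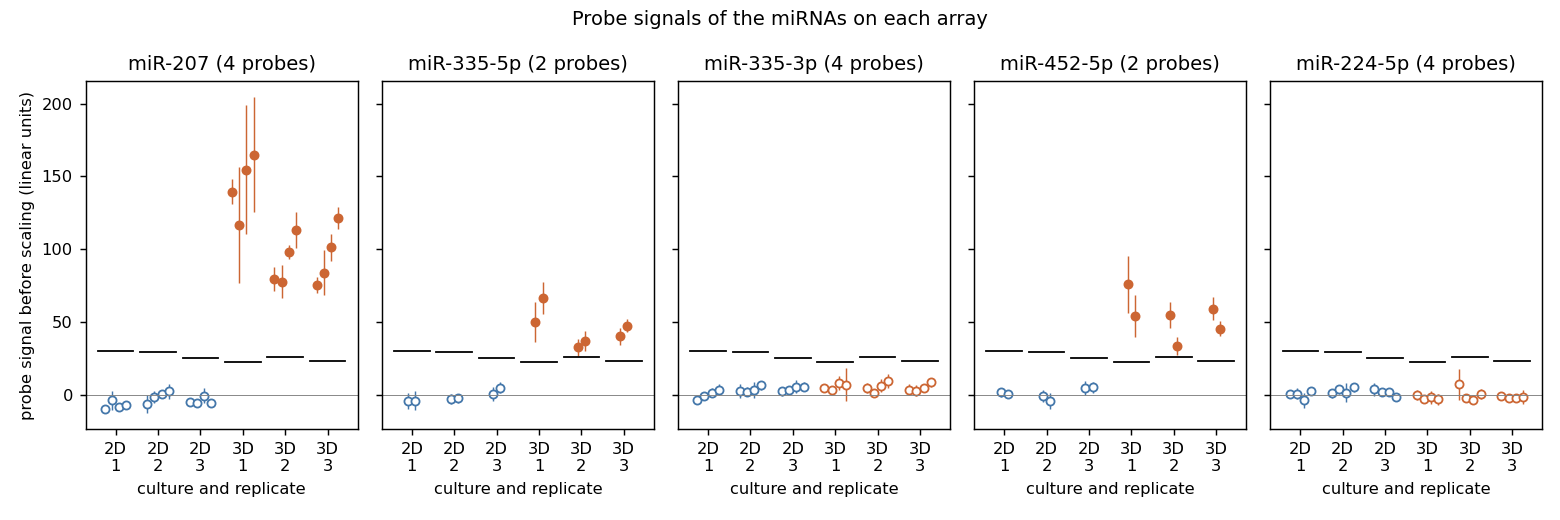
Mean signal of each probe before scaling in linear units (vertical axis) on each 2D and lr-ECM 3D array (horizontal axis), with 1 panel per miRNA, bars for the SD over spots and short black lines for the lowest signal well above background of the array. Filled points are well above background: all probes of miR-207, miR-335-5p and miR-452-5p are filled on the 3 lr-ECM 3D arrays and open on the 3 2D arrays, while miR-335-3p and miR-224-5p are open throughout.

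Negative control spots give a second scale for these signals. The main probes of miR-207, miR-335-5p and miR-452-5p exceeded 100% of the negative control spots on each lr-ECM 3D array, and the dimmer probes of miR-335-5p and miR-452-5p exceeded 99.8% of them on lr-ECM 3D replicate 2. In 2D the picture was reversed, as miR-207 lay above 1.07%, 17.5% and 1.37% of the negative control spots of replicates 1 to 3. MiR-335-5p lay above 2.60% to 35.6% of them and miR-452-5p above 6.70% to 36.9%. The highest 2D signals of both miR-335-5p and miR-452-5p came from replicate 3, the brightest 2D array, yet these lay below the mean of that array's negative controls, 7.37 units.

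**Figure D2:**
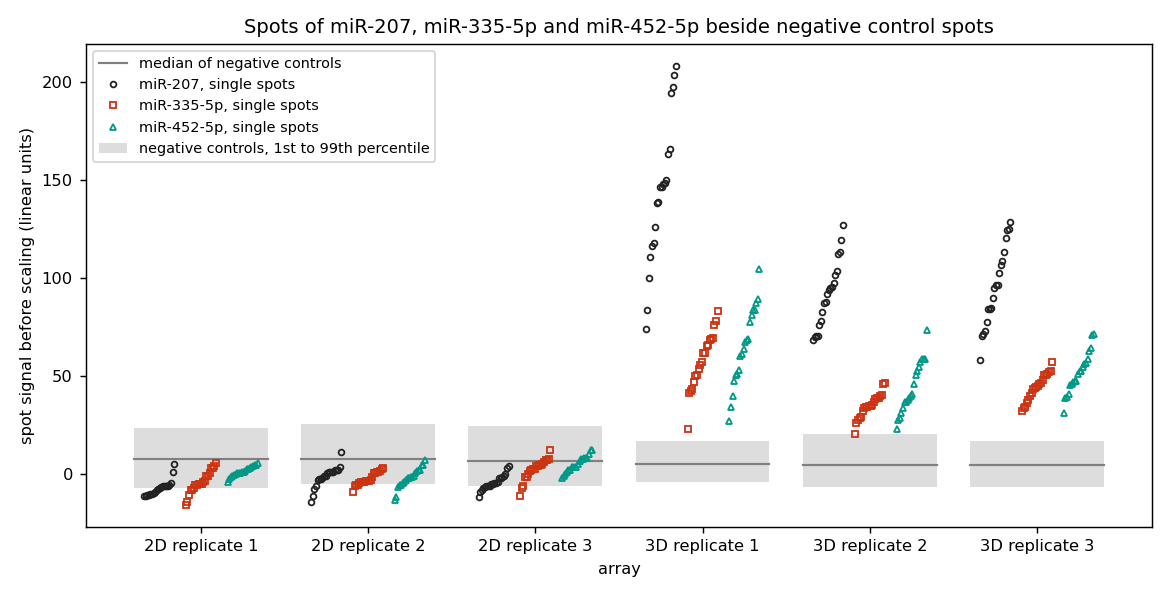
Signal of every single spot before scaling in linear units (vertical axis) for miR-207 (circles), miR-335-5p (squares) and miR-452-5p (triangles) on each array (horizontal axis), with the grey band spanning the 1st to the 99th percentile of the negative control spots and the line their median. In 2D all spots lie inside or below the band, whose top is 23.1 to 25.2 units, and on the lr-ECM 3D arrays nearly all lie above it.

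The other arm of the Mir335 hairpin did not follow. MiR-335-3p read 3.30, 6.38 and 5.33 units in 2D and 6.92, 9.18 and 8.54 units in lr-ECM 3D on its brightest probe, and 0 of its 4 probes was well above background on any array. Unscaled, the groups did not overlap for this probe, yet every value was below the array's detection limit. Every lr-ECM 3D array exceeded every 2D array, unscaled, for 116 of all 566 miRNAs (20.5%). For some of the other miR-335-3p probes the groups did overlap. After scaling the order turned, with a log2 of 2.72 ± 1.82 in 2D and 2.12 ± 0.43 in lr-ECM 3D (SD, n = 3 each), a difference of -0.60 that was smaller than the pooled SD of 1.33. Neither direction can therefore be read from miR-335-3p. One spot of another miR-335-3p probe on lr-ECM 3D replicate 2, at 87.1 units, was marked as an outlier by the scanner software and left out, while the other spots of that probe read 2.83 to 12.8 units.

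MiR-224-5p, encoded beside miR-452, was not detected in either culture. Its brightest probe read 2.44, 4.90 and -1.57 units in 2D and -3.26, 0.116 and -1.70 units in lr-ECM 3D, with 0 flagged spots on 6 arrays. The 4 probes had their highest lr-ECM 3D signal at 7.03 units. Scaled log2 levels were 1.93 ± 2.28 in 2D and at the floor on all lr-ECM 3D arrays. The difference of -1.93 was -1.19 without scaling. Both are differences between values that were not well above background, so they carry no measured change. At this detection limit a lower level of miR-224-5p or miR-335-3p cannot be told from none.

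How often arms and neighbours part in this way was counted over the whole array. Of 147 hairpins with probes for both arms, 7 had both arms well above background in all 3 lr-ECM 3D replicates, 25 had the 5p arm alone, as miR-335 did, 22 had the 3p arm alone and 93 had neither. Among 14 hairpins with an arm on 3 lr-ECM 3D arrays and 0 2D arrays, the other arm was on no array in 12, including miR-335, had another pattern in 2 and had the same pattern in 0. Where a hairpin was detected at all on 3 lr-ECM 3D arrays, it was mostly by one arm.

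**Figure D3:**
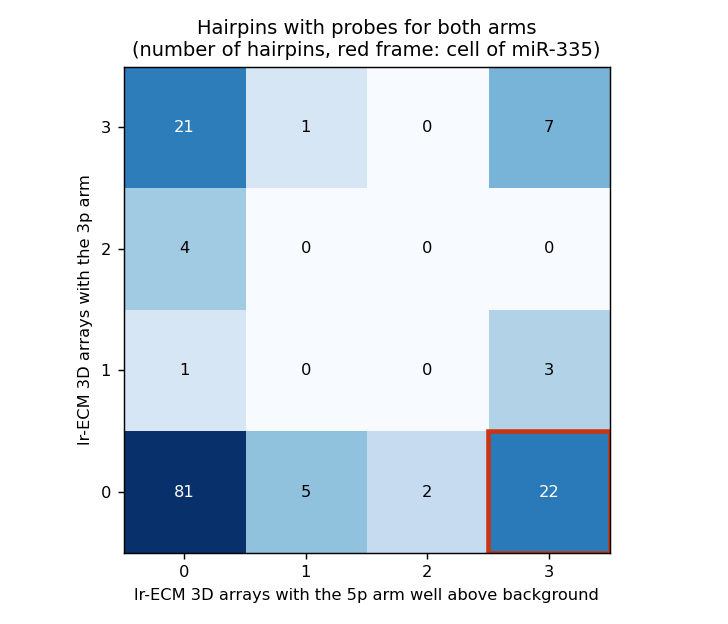
Number of hairpins (figure in each cell) by the number of lr-ECM 3D arrays, 0 to 3, on which the 5p arm (horizontal axis) and the 3p arm (vertical axis) were well above background, over 147 hairpins with probes for both arms. The framed cell holds miR-335 and 21 other hairpins with the 5p arm on 3 arrays and the 3p arm on 0.

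Neighbours in the genome were counted in the same way, each hairpin placed by its gene name in the RefSeq table. Of 415 hairpins on the array 399 were placed, and 212 of these had another within 10 kb on either strand. Placement by name counted some hairpins under several names, as with miR-16 and miR-16-1. It also gave miR-298 the gaps of miR-299a besides its own, so these counts are approximate. For 74 of the 212 (34.9%) all such neighbours were on no array, as for Mir452, whose neighbour is Mir224. The 212 include hairpins that were themselves on no array, so this is not a share of detected hairpins. Of the 28 placed hairpins with a miRNA on 3 lr-ECM 3D arrays and 0 2D arrays, miR-207 and miR-335 were among the 11 without a neighbour. Of the other 17, 11 had a neighbour with the same pattern and 3, among them miR-452, had neighbours on no array. The remaining 3 had a neighbour detected in another pattern. All 11 lay on chromosome 2, where the miR-297, miR-466, miR-467 and miR-669 genes cluster. Each of these chromosome 2 hairpins also had neighbours on no array. For miR-669a, 10 of 15 neighbours shared the pattern, 3 were on no array and 2 had another pattern. Neighbours with unlike readouts were thus seen beside miR-452 and within the chromosome 2 cluster. Neighbours in one host gene such as Gabre may share a primary transcript, but pairs that share it were not identified here.

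The place of these miRNAs among all others follows from the choice and is given for reference. Of the 566 mouse miRNAs, 29 (5.12%) were well above background in all 3 lr-ECM 3D replicates and in 0 in 2D, and 412 were on no array. Of these 29, the bound of the fold over 2D was above 1 for 15 and at least 2 for 10, and by its size miR-207 ranked 11, miR-452-5p 18 and miR-335-5p 21. Of the 3 chosen miRNAs, miR-335-5p in lr-ECM 3D replicate 2, with 80% of spots flagged, came nearest to the detection limit. MiR-719, at 30.1, 14.5 and 23.1 units in lr-ECM 3D and well above background on 2 of the 3 arrays, was outside the pattern. It was 1 of 10 miRNAs on 2 lr-ECM 3D arrays and 0 2D arrays.

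With limma and Benjamini-Hochberg adjustment over the 120 miRNAs that every replicate of a group detected, 14 (11.7%) were called at an adjusted p under 0.05 and a fold of 2, of which 13 (10.8%) were higher in lr-ECM 3D. MiR-207, miR-335-5p and miR-452-5p were all 3 among the 13, but they were chosen on this contrast and nothing is read from that. All 13 were among the 29, a share of 44.8%. Signals of the lr-ECM 3D arrays all exceeded those of the 2D arrays for 24 of the 120 tested miRNAs (20%) after scaling and for 116 of all 566 (20.5%) before it. The median log2 difference was 3.79 over the 29 and -0.11 over the 120. Relative to that median the differences were 5.15 for miR-207, 4.35 for miR-335-5p and 4.47 for miR-452-5p.

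Likeness of pattern was measured over the 6 arrays as the root mean square difference between scaled log2 levels, each miRNA being centred on its own mean. MiR-335-5p and miR-452-5p were the closest pair of the chosen miRNAs, at 0.254, whereas miR-207 stood at 1.44 from miR-335-5p and farther from miR-452-5p. The distance of miR-207 lay in the 2D arrays, with 2D replicates 2 and 3 holding 40.7% and 46.5% of its sum of squares to miR-335-5p and 48.3% and 34.2% of that to miR-452-5p. On 2D replicate 2 miR-207 was above the floor and the others were at it, and on 2D replicate 3 the reverse held. Among the 117 other tested miRNAs, miR-877-3p was nearest to miR-207, at 0.366, followed by miR-302c-3p at 0.836 and miR-376c-3p at 0.847.

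The 3 nearest to miR-335-5p were also the 3 nearest to miR-452-5p. MiR-466d-3p was at 0.483 from miR-335-5p and 0.437 from miR-452-5p, miR-485-3p at 0.499 and 0.443, and miR-297a-3p at 0.772 and 0.695. All 3 lay at the floor on every 2D array, and their lr-ECM 3D levels were 4.28 to 4.77, 4.42 to 4.87 and 5.35 to 5.63 on the log2 scale. In each of them, as in miR-335-5p, lr-ECM 3D replicate 1 was the highest and replicate 2 the lowest of its group, whereas miR-452-5p was highest in replicate 3. No shared function or control is read from the likeness, since values at the floor have no order.

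**Figure D4:**
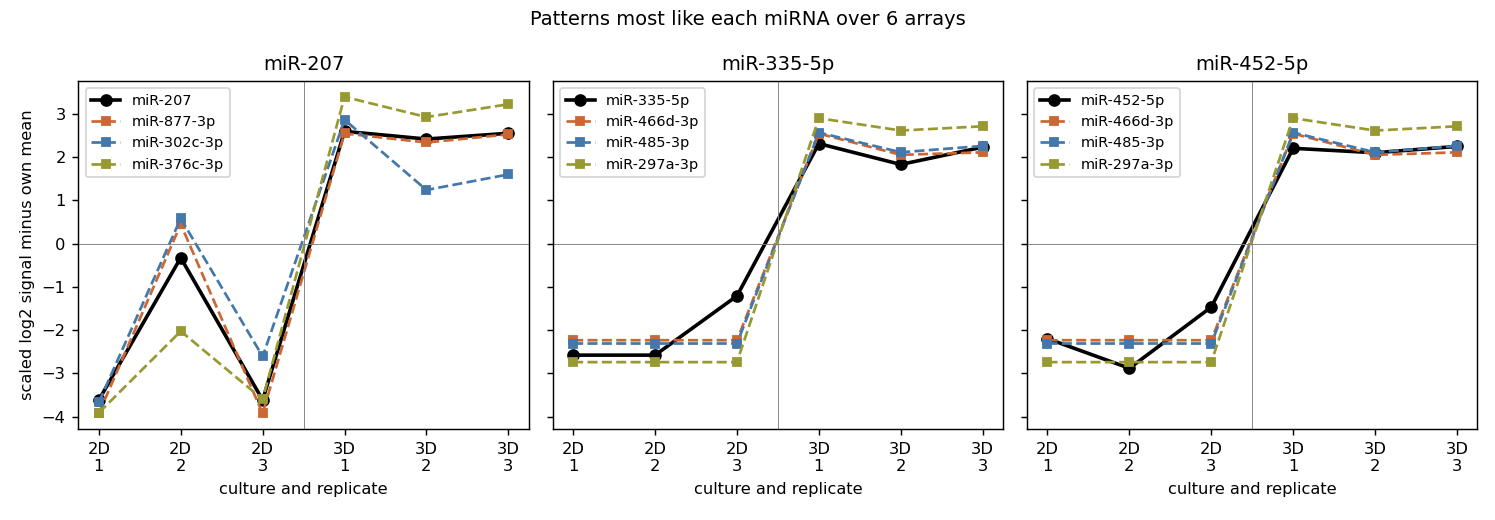
Scaled log2 signal minus the mean of the same miRNA (vertical axis) on each 2D and lr-ECM 3D array (horizontal axis) for miR-207, miR-335-5p and miR-452-5p (solid black) and the 3 tested miRNAs nearest to each (dashed). All curves are highest in lr-ECM 3D, and within 2D miR-207 and its 3 nearest miRNAs are highest in replicate 2, whereas miR-335-5p and miR-452-5p are highest in replicate 3.

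Runs of bases shared with other miRNAs were searched among the 466 of 566 array miRNAs with a RefSeq mature sequence, since a probe captures what pairs with it. The longest run shared by miR-207 was 10 bases with miR-485-3p, itself on 3 lr-ECM 3D arrays and 0 2D arrays. MiR-485-3p read -6.23, -8.11 and -4.51 units in 2D and 65.5, 37.1 and 40.1 units in lr-ECM 3D. The pair is shown with the shared run in capitals.

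miR-207: gcuucuccuGGCUCUCCUCccuc

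miR-485-3p: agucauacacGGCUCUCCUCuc

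Runs of this length were not rare, as 33% of the 466 miRNAs shared one of at least 10 bases with another and 51.1% one of at least 9. MiR-335-5p shared 9 bases with miR-719, the miRNA just outside the pattern, and the pair is shown in the same way.

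miR-335-5p: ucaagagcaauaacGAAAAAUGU

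miR-719: aucucggcuacaGAAAAAUGUu

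For miR-452-5p the longest run, 9 bases, was with miR-30a-3p, which was on no array and read at most 4.58 units on any of them. MiR-224-5p shared 9 bases with miR-218-1-3p and miR-335-3p 8 with miR-137-3p, both on no array. Whether probes cross-hybridised was not tested.

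Other miRNAs of related standing were then looked up. MiR-126a-3p, named with miR-335 as a suppressor of metastasis and abundant in endothelium, was on no array, and miR-206-3p, a muscle miRNA of the same group, was on 1 lr-ECM 3D array, so neither was tested. Their scaled log2 differences, lr-ECM 3D minus 2D, were 0.47 and -0.43. Neither was therefore measured well enough to be set beside miR-335-5p.

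Of a list of 8 miRNAs from the imprinted Gnas, Igf2 and H19 loci, 7 had probes, of which 2 were bright enough to test and 0 were called in either direction. The list left out the imprinted Dlk1-Dio3 and Sfmbt2 clusters, which were not without calls. MiR-376c-3p and miR-485-3p of Dlk1-Dio3, with log2 differences of 6.35 and 4.62, and 7 of the chromosome 2 miRNAs, with 4.46 to 7.58, were among the 13 called higher. MiR-483-3p, encoded within the imprinted Igf2 gene, was on 3 lr-ECM 3D arrays and 0 2D arrays, with a log2 of 2.65 ± 2.51 in 2D and 4.57 ± 0.19 in lr-ECM 3D (SD, n = 3 each). Its difference of 1.92 had an adjusted p of 0.349 by limma. MiR-296-5p, from the Gnas region, differed by -0.25 with an adjusted p of 0.553. For both miRNAs of the H19 transcript, miR-675-5p and miR-675-3p, all 6 arrays were at the floor.

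As a second X-linked group within a host gene, the Clcn5 miRNAs had 9 of 10 arms on the array. MiR-188-5p alone was tested, at a log2 of 4.93 ± 0.98 in 2D and 4.92 ± 0.17 in lr-ECM 3D (SD, n = 3 each; limma, adjusted p = 0.993), and 0 were called. The other 8 were on no array. In this group, as among the arms in Gabre that had probes, 1 arm was detected and its neighbours were not. MiR-452-3p and miR-224-3p had 0 probes, so the other arms in Gabre could not be seen. Unlike miR-452-5p, miR-188-5p was also on 2 of the 3 arrays of 2D.

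Cell type markers were read in the same arrays. The carcinoma miRNAs miR-21a-5p, miR-31-5p and miR-155-5p were all detected in lr-ECM 3D and 0 of 3 were called. None of the 5 epithelial miRNAs of the miR-200 family was detected on any array, so the family usual in epithelial cells was not seen in either culture. Of 6 blood cell miRNAs miR-142-3p was on all 6 arrays and miR-142-5p on 4, with 0 called, while miR-451a, miR-144-3p and miR-150-5p were at the floor throughout. The summed signal of the blood list was 122 to 504 units in 2D and 435 to 611 units in lr-ECM 3D before scaling, and its part in the results was not tested. MiR-122-5p of liver and miR-124-3p of neurons were on no array, and of 3 muscle miRNAs miR-206-3p was on 1.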

How the data were processed

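MiRNA levels were measured on 6 one-colour Agilent mouse arrays, 3 of LLC1 cells in 2D and 3 in lr-ECM 3D, grouped by the sample labels, which call the replicates biological. The deposited scanner files hold background-subtracted spot intensity values on a linear scale, which the authors made with Feature Extraction 10.7.3.1, and other columns of flags for outlying and detected spots. A second deposited table, of log2 values scaled by the authors, served as an alternative.

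Control spots and 190 to 369 outlier spots per array were left out, and spots of a probe were averaged. Each array was multiplied so that its mean over miRNA probes equalled that of the 2D arrays (factors 1.04, 4.43 and 0.552 for 2D, 0.447, 0.575 and 0.589 for lr-ECM 3D), following the methods' scaling to the control mean. Values under 1 were set to 1 before log2, and the probe with the highest mean log2 stood for its miRNA. Mouse miRNAs that all 3 replicates of a group detected entered limma 3.58.1 (R 4.3.3, two-sided), with Benjamini-Hochberg adjustment. The fit was tested on simulated data.

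The miRNAs described are the members, fixed lists of related miRNAs and of cell type markers, and the 3 tested miRNAs nearest in pattern to each chosen member. Members, lists and rules were chosen with earlier results of these data known. Sequences and positions came from RefSeq tables of GRCm38.p6. Neighbours were to be counted on the same strand, but strand was not at hand for every gene, so both strands were used. Alternatives covered scaling, background correction, probe summary, floor, filter, outlier spots, detection rule, the deposited values, each array left out, the replicate block and the methods' t-test. For normexp the pixel signal and its background were used with an offset of 50. The number of arrays limits the precision.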

Additional observations from a re-analysis of the deposited data

How the results depend on the processing

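Detection of the members changed least between settings. The chosen miRNAs had been picked by their detection, so nothing is read from this. MiR-207, miR-335-5p and miR-452-5p were on 3 lr-ECM 3D arrays and 0 2D arrays, and miR-335-3p and miR-224-5p on none, under each detection rule tried, except that with all spots required miR-335-5p was on 2 lr-ECM 3D arrays. No value of the chosen miRNAs changed sign, but sizes moved with the floor and the background correction. For miR-207 the log2 difference of 5.03 was 6.66 without scaling, 1.25 with normexp, 2.81 with a floor at 10, 6.87 between arrays of like brightness and 4.11 to 6.60 with 1 array left out. For miR-335-5p 4.24 became 4.86, 0.53, 1.37 and 3.16 under those 4 settings and 5.08 with total gene signal. For miR-452-5p 4.36 became 5.00, 0.59, 1.74 and 3.56, and 5.34 with total gene signal. The difference of miR-335-3p turned to 0.76 without scaling, 0.73 at like brightness and 0.45 without 2D replicate 2. That of miR-224-5p was -1.19 without scaling and 0 at like brightness and with total gene signal.

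Bounds depended on the 2D array used. For miR-207 the bound of 1.83 was 4.69 without scaling, 0.539 over 2D replicate 2 and 5.02 over 2D replicate 3. It was 1.10 without 2D replicate 3 and 3.37 without 2D replicate 2. For miR-335-5p 0.678 became 1.74, 0.200 and 1.86, and 0.409 to 1.25 without 2D replicate 3 or 2. For miR-452-5p 0.871 became 2.23, 0.257 and 2.39, and 0.526 to 1.61. The setting of like brightness, chosen for bounds after the data were seen, gave 1.65 for miR-335-5p and 2.25 for miR-452-5p.

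The count of 14 calls was 24 with the 75th percentile over all probes, 26 without scaling, with total gene signal or with deposited values, and 32 with no filter. It was 0 by limma with a filter on all 6 arrays, where 7 had an unadjusted p under 0.05 and 0 of those a fold of 2. Leaving out 1 array gave 12 to 31, the highest without 2D replicate 2. MiR-207 was not called with no filter (32), without 2D replicate 1 (13) or without lr-ECM 3D replicates 1, 2 or 3 (12, 17 and 12). MiR-335-5p and miR-452-5p were called in all of those and lost with normexp (11 calls). The methods' t-test called 17, and 12 after adjustment, the 12 without miR-207. The replicate block gave 12 calls, without miR-207. The replicate numbers were not taken to pair the arrays, as same-numbered arrays had correlations of deviations of -0.323, -0.370 and 0.158. Scaling moved the median of the tested miRNAs from -0.11 to 1.24 when it was left out, and relative to that median miR-207 was then at 5.42, miR-335-5p at 3.62 and miR-452-5p at 3.76.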
